A study of Mus musculus with 12 samples.

Results

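The level of 10 genes of the Wnt/β-catenin pathway was followed in mouse embryonic stem cells (ESCs) with and without Cdk8, before and after Xist was switched on. The genes were taken by name from the 25759 genes listed for every library, and all 10 were found: Ctnnb1, Tcf7, Lef1, Tcf7l1, Axin2, Nkd1, Sp5, Cdx1, Ccnd1 and Lgr5. The wild-type cells were the parental HATX3 line, diploid ESCs of haploid-embryo origin in which doxycycline switches Xist on. All 12 libraries, the ΔCdk8 ones included, therefore share the inducible Xist system. Induced libraries received doxycycline and uninduced ones did not. Effects of doxycycline itself, or of the cell loss that the authors report on induction, cannot be told apart from those of Xist. Changes with induction are called changes with Xist expression below within this limit. The ΔCdk8 cells came from CRISPR/Cas9 removal of a small stretch around the start codon of Cdk8, and each of the 3 ΔCdk8 replicates was a separate clone, numbered 8, 11 and 15. Features of a clone and the loss of Cdk8 cannot be told apart within 1 clone. All 3 clones had been transfected and singled out, whereas the paper describes the parental line as polyclonal and possibly holding some differentiated cells. Cloning therefore went with genotype, and its effects cannot be told apart from those of Cdk8 loss in any comparison of ΔCdk8 with wild-type cells. Poly(A) RNA was sequenced from 4 groups of 3 samples: wild-type uninduced, wild-type with 48 h of Xist expression, ΔCdk8 uninduced, and ΔCdk8 with 48 h of Xist expression. The medium contained serum and LIF. An inhibitor of Gsk3β, which activates this same pathway, was part of the maintenance medium in the study, and the sources used here do not say whether it was present in the cultures that were sequenced.

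Wnt ligands bind Frizzled and Lrp receptors at the cell surface. Without them a destruction complex of Axin, Apc, Ck1 and Gsk3 marks β-catenin for degradation, and with them β-catenin enters the nucleus and binds TCF/LEF factors on DNA. The Cdk8 module of Mediator, which contains the kinase Cdk8 or its paralogue Cdk19, is known as a partner of β-catenin-driven transcription. In ESCs, Tcf7l1 (also known as Tcf3) acts mainly as a repressor of pluripotency genes, and β-catenin relieves that repression.

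Between 22170087 and 60798578 reads were counted in genes per library, and 4.77% to 7.59% of them lay in introns. Cdk8 itself was at 64.2 to 74.2 TPM (transcript level scaled by gene length and library total) in uninduced wild-type cells and at 34.4, 56.8 and 85.3 TPM in uninduced clones 8, 11 and 15, so that its total transcript level did not separate the genotypes. Cdk19 was at 4.75 to 12.4 TPM. Reads outside the deleted stretch do not test the deletion, and the labels were taken as given. All 7 ESC markers were detected, with a summed level of 1524 to 3034 TPM, and Pou5f1 alone was at 684 to 1779 TPM. Several of the others differed between groups. Sox2 (265 to 339 against 172 to 240 TPM), Nanog (192 to 403 against 50.2 to 157 TPM), Klf4 (54.7 to 84.7 against 26.2 to 51.7 TPM), Esrrb and Tfcp2l1 were higher without overlap in uninduced ΔCdk8 than in uninduced wild-type libraries. Sox2 (246 to 367 TPM), Zfp42 (129 to 145 against 72.9 to 119 TPM) and Esrrb were likewise higher in induced than in uninduced wild-type libraries. Groups without overlap were common, at 23.1% and 26.3% of all tested genes in these 2 comparisons. With Xist expression in the clones, where Lef1 also fell with pairing and Tbx3 was higher without overlap, Sox2, Nanog, Zfp42, Esrrb and Klf4 overlapped between groups while Tfcp2l1 was higher without overlap (118 to 135 against 76.7 to 102 TPM). In induced ΔCdk8 against induced wild-type libraries, Nanog (232 to 407 against 112 to 210 TPM) and Tfcp2l1 (118 to 135 against 37.2 to 57.1 TPM) were higher without overlap. There Esrrb was lower without overlap, and Pou5f1, Sox2, Zfp42 and Klf4 overlapped. Of all tested genes, 5.25% and 28.7% did not overlap in these 2 comparisons. Of 5 mesoderm and primitive streak markers, T, Mesp1 and Gsc stayed below 1 TPM in every library, while Eomes was at 3.84 to 14.1 TPM in ΔCdk8 against 0.775 to 3.64 TPM in wild-type libraries. Summed fibroblast markers were 5.54 to 17.4 TPM in wild-type and 17.8 to 32.3 TPM in ΔCdk8 libraries. Thy1 was at 5.12 to 16.1 and 10.6 to 31.2 TPM, Col1a1 reached 1.35 and 3.36 TPM and Col1a2 0.874 and 3.67 TPM in the same order, and Col3a1 was at or below 0.156 TPM. Summed levels of 4 trophoblast markers varied from 0.289 to 57.6 TPM between libraries, and those of 5 primitive endoderm markers from 2.10 to 8.82 TPM in wild-type and 4.98 to 10.6 TPM in ΔCdk8 libraries. Of these, Gata4 was at 1.82 to 5.42 TPM in every ΔCdk8 library against 0.145 to 1.52 TPM in every wild-type library, whereas Gata6, Sox17, Dab2 and Pdgfra overlapped between genotypes and Sox17 stayed at or below 0.265 TPM. The 3 neuroectoderm markers summed to 10.4 to 41.3 TPM. The part of any of these in the results was not tested, and in bulk samples fewer cells of a type and less RNA per cell cannot be told apart.

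The strongest pattern among the 10 genes was that of Lef1, whose level was lower after Xist expression in every pair and lower in uninduced ΔCdk8 than in uninduced wild-type libraries. The pathway's usual transcriptional readout, Axin2, did not follow Lef1, and Ctnnb1 was flat. The promoter windows are shown for Lef1, a TCF/LEF factor that is itself a target, and for the direct target genes Axin2 and Sp5. RefSeq windows (GRCm38.p6) were found for 7 of the 10 genes and were not used here for Ccnd1, Lgr5 and Cdx1. Each sequence gives the 250 bases before the transcript start, all on the plus strand: Sp5 at chr2:70474673-70474922, Lef1 (the first of its annotated starts) at chr3:131110047-131110296 and Axin2 at chr11:108920099-108920348. Capitals mark matches on either strand to 3 TCF/LEF-type motifs, CTTTGAT or CTTTGAA or CTTTGTT.
Sp5: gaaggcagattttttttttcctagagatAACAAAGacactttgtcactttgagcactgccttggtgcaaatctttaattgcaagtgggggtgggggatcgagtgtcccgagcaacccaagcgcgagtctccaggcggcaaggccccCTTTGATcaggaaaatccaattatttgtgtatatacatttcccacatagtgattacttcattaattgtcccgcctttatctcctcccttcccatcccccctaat
Lef1: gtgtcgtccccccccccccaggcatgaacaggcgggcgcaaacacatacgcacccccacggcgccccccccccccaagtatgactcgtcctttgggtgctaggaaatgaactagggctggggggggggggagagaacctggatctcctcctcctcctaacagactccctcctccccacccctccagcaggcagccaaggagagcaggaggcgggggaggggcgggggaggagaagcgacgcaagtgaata
Axin2: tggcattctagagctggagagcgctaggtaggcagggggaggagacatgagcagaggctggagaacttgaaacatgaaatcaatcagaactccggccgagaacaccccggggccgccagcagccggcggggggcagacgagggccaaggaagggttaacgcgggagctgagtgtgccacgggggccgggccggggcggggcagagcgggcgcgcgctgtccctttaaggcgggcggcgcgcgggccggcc

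Among the 12 windows of the 7 genes, only that of Sp5 held a match. It had CTTTGAT on the same strand, beginning 104 bases before the start, and CTTTGTT on the opposite strand, beginning 222 bases before it. Of all 32851 RefSeq windows of this length, 3.21% held the first motif, 4.46% the second and 5.03% the third, and 12.04% held any of them, so a match is not rare. These letters being absent from the Lef1 and Axin2 windows says nothing of sites elsewhere.

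Ctnnb1, which encodes β-catenin (chromosome 9, 120929216 to 120960507, GRCm38), was the most abundant and the most even of the 10 transcripts. Its level per length was between 357 and 436 TPM in all 12 libraries, a 1.22-fold range. Group means were 418 ± 17.1 TPM in uninduced and 421 ± 10.3 TPM in induced wild-type cells, and 421 ± 16.5 TPM in uninduced and 384 ± 28.4 TPM in induced ΔCdk8 cells (SD, n = 3 each). In induced cells the 3 clones lay below the 3 wild-type libraries, though clone 11 and wild-type replicate 2 were almost level (28.7% of all tested genes had groups that did not overlap there), and the log2 fold change was -0.28 (SE 0.17, adjusted p = 0.331). This change was -0.15 without clone 15 and -0.41 without clone 11. Transcript levels say nothing of the β-catenin protein, whose stability is the regulated step.

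Of the TCF/LEF factors, Lef1, Tcf7 and Tcf7l1 are among the 10 genes, and the remaining one, Tcf7l2, belongs to the wider list described further on. Lef1 (chromosome 3, 131110471 to 131224356) encodes a factor that acts with β-catenin as an activator and is itself a target of the pathway. In uninduced wild-type cells it was at 31.4, 68.4 and 47.6 TPM in replicates 1, 2 and 3, and after Xist expression at 1.80, 12.4 and 8.99 TPM. In ΔCdk8 clones 8, 11 and 15 it was at 1.64, 14.7 and 3.94 TPM before and at 0.243, 2.33 and 0.711 TPM after Xist expression. Every uninduced wild-type library was thus above every other library, every induced library was below its own uninduced partner, and the lowest and the highest of the 12 libraries were 281-fold apart. The reads behind these levels were 4115 in the deepest wild-type uninduced library and only 26, 6 of them in introns, in induced clone 8.

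**Figure D1:**
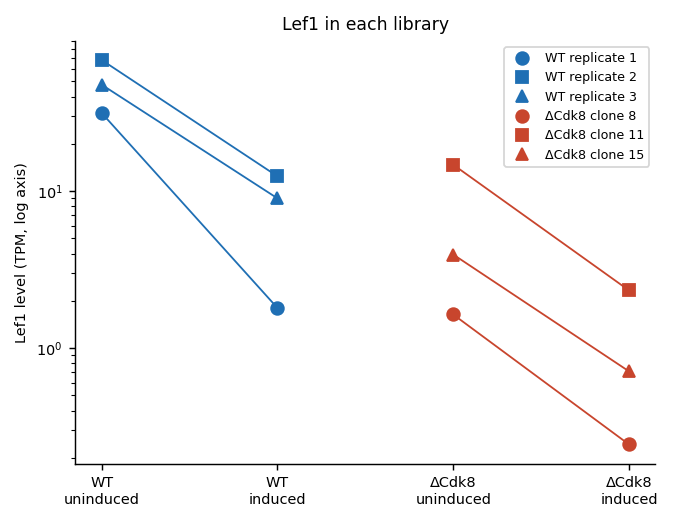
Lef1 level (TPM, log axis) in the 12 libraries, with a line joining the uninduced and induced library of each wild-type number or ΔCdk8 clone. All 6 lines slope down, and clone 11 lies highest of the ΔCdk8 clones at 14.7 and 2.33 TPM.

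Lef1 fell with Xist expression in both genotypes when libraries of the same number or clone were paired. The paired log2 fold change was -2.86 (SE 0.36, adjusted p = 0.00577) in wild-type cells and -2.55 (SE 0.17, adjusted p = 1.05207e-08) in ΔCdk8 cells (edgeR quasi-likelihood fit, p adjusted over all genes by the Benjamini-Hochberg method). Over all genes 3.95% and 1.4% passed in these paired fits. Without the pairing the values were -2.62 (SE 0.68, adjusted p = 0.0813) and -2.61 (SE 1.07, adjusted p = 0.999996), both short of the threshold used throughout, a change above 2-fold with an adjusted p below 0.01. Levels after Xist expression were 0.0573 to 0.189 of those before in wild-type cells and 0.149 to 0.180 in the clones. The interaction of genotype and induction in the paired fit was 0.33 (SE 0.46, adjusted p = 0.715), so no difference between the genotypes in the fall of Lef1 was detectable. Replicate 1 of the wild-type cells had the steepest fall, and without it the unpaired wild-type change was -2.41 and passed the threshold (adjusted p = 0.00227). Over all alternatives the adjusted p ranged from 0.000317 (DESeq2) to 0.521 (without replicate 3) in wild-type cells and from 1.05207e-08 to 0.999996 in ΔCdk8 cells.

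Before Xist was switched on, Lef1 was at 49.2 ± 18.5 TPM in wild-type and 6.77 ± 6.98 TPM in ΔCdk8 cells (SD, n = 3 each), and the groups did not overlap, as was so for 23.1% of all tested genes. The log2 fold change was -2.88 (SE 0.78), with an adjusted p of 0.154 in edgeR and 0.00137 in DESeq2, so the call depended on the tool. Over all alternatives it ranged up to 0.501, without wild-type replicate 3. The clones themselves ranged from 0.0333 to 0.300 of the wild-type mean. Clone 11 sets much of the size of this difference, which was -4.29 without it. In induced cells the log2 fold change was again -2.88 (SE 0.95, adjusted p = 0.120 in edgeR and 0.00693 in DESeq2, and up to 0.338 over all alternatives), or -4.15 without clone 11, but the groups overlapped, since clone 11 at 2.33 TPM was above wild-type replicate 1 at 1.80 TPM.

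Tcf7 (chromosome 11, 52252371 to 52283014, minus strand), which encodes Tcf1, another factor acting mainly with β-catenin, was lower after Xist expression in every wild-type pair and higher in every clone. In wild-type replicates 1, 2 and 3 it went from 55.1, 44.7 and 43.6 TPM to 46.8, 32.6 and 37.5 TPM. In clones 8, 11 and 15 it went from 53.2, 45.1 and 63.2 TPM to 58.9, 50.1 and 70.8 TPM. The induced level was 0.729 to 0.860 of the uninduced level in wild-type cells and 1.11 to 1.12 of it in the clones. The interaction was 0.45 on the log2 scale (SE 0.21, adjusted p = 0.999858), or 0.45 (SE 0.11, adjusted p = 0.0398) with pairing, which is under 2-fold and short of the threshold. After Xist expression the clones lay above the wild-type libraries without overlap, with a log2 fold change of 0.44 (SE 0.18, adjusted p = 0.168).

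Tcf7l1 (chromosome 6, 72626378 to 72789254, minus strand), the repressor of the family, was more abundant per length than Tcf7 and Lef1 in all 12 libraries. It was at 62.4, 128 and 136 TPM in uninduced and 89.7, 152 and 146 TPM in induced wild-type replicates 1, 2 and 3, and at 106, 72.1 and 82.2 TPM in uninduced and 121, 69.6 and 81.6 TPM in induced clones 8, 11 and 15. Wild-type replicate 1 and clone 8 stood apart from the other libraries of their groups, so that the genotypes overlapped. The log2 fold change of ΔCdk8 against wild-type cells was -0.50 (SE 0.29, adjusted p = 0.343) before and -0.69 (SE 0.28, adjusted p = 0.174) after Xist expression. The first of these was -0.78 without wild-type replicate 1 and -0.31 without wild-type replicate 3.

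Chromosomes 3 and 6, which carry Lef1 and Tcf7l1, were themselves uneven between clones, while the same median for chromosome 11, which carries Tcf7 and Axin2, lay between -0.08 and 0.001 in the uninduced clones. The median log2 ratio to uninduced wild-type cells over 557 expressed genes of chromosome 3, less that of all autosomal genes, was 0.50 in uninduced clone 8 and 0.63 in uninduced clone 15 but -0.01 in uninduced clone 11. It lay between -0.09 and 0.07 in wild-type libraries. Lef1 was thus lowest in the clones whose chromosome 3 genes were otherwise higher than in wild-type cells. Over 550 genes of chromosome 6 the median was -0.54 in uninduced clone 11, near the -0.60 of Tcf7l1 in that clone, while in clone 15 the median was -0.12 and Tcf7l1 -0.41. The part of these medians in the levels of Lef1 and Tcf7l1 was not tested.

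**Figure D2:**
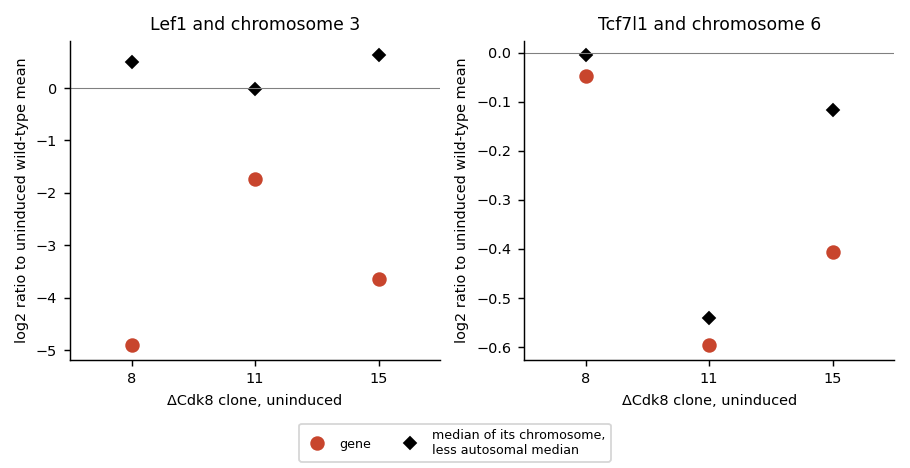
Log2 ratio to the uninduced wild-type mean in the 3 uninduced ΔCdk8 clones, for Lef1 beside the median of chromosome 3 and for Tcf7l1 beside that of chromosome 6, each median less the autosomal median. Lef1 lies at -4.91, -1.74 and -3.64 in clones 8, 11 and 15, and the chromosome 3 median at 0.50, -0.01 and 0.63. The vertical scales of the panels differ.

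Axin2 (chromosome 11, 108920349 to 108950783), the scaffold of the destruction complex and a feedback inhibitor, was low throughout and did not follow Lef1. In uninduced wild-type replicates 1, 2 and 3 it was at 2.56, 1.93 and 1.25 TPM and in induced ones at 3.42, 2.30 and 2.16 TPM. Clones 8, 11 and 15 had 1.15, 5.32 and 1.97 TPM before and 1.48, 7.29 and 1.999 TPM after Xist expression. All 6 pairs were higher after Xist expression, by ratios of 1.01 to 1.72, yet the paired log2 fold changes of 0.55 (SE 0.20, adjusted p = 0.0964) in wild-type and 0.32 (SE 0.15, adjusted p = 0.197) in ΔCdk8 cells did not pass. Clone 11 was the highest library in both conditions, while clones 8 and 15 lay within or below the wild-type range of the same condition. The genotype difference depended on it: 0.49 (SE 0.63, adjusted p = 0.660) in uninduced cells became -0.52 without clone 11, and 0.36 (SE 0.65, adjusted p = 0.743) in induced cells became -0.85.

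Nkd1 (chromosome 8, 88521354 to 88594884), which binds Dishevelled and dampens the signal, was at 0.547 to 1.22 TPM in wild-type and 0.609 to 1.85 TPM in ΔCdk8 libraries. Its 3 wild-type pairs were lower after Xist expression, at 0.747 to 0.857 of the uninduced level, and 2 of the 3 clones were higher. Clone 11, the highest for Axin2, was the lowest of the clones for Nkd1 at 0.793 and 0.609 TPM, so these feedback inhibitors did not rank the clones alike. No comparison of Nkd1 passed. Its log2 fold changes were between -0.43 and 0.62 in the unpaired edgeR fits with all libraries, and other fits are not covered by this range.

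Over the 12 libraries the genes most like Axin2 included, by Pearson's correlation of log2(TPM + 1), Pnp_1 (r = 0.958), Myo1f (r = 0.946), Nfatc2 (r = 0.940) and H2-M5 (r = 0.931). Myo1f, for instance, was at 14.6 and 13.8 TPM in clone 11 and at most 3.05 TPM in the other 10 libraries. These 4 were highest in clone 11, so these correlations mostly describe that clone and share its libraries. Among the 10 pathway genes, Sp5 was nearest to Axin2 (r = 0.794), and Ccnd1 to Lef1 (r = 0.764).

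Sp5 (chromosome 2, 70474923 to 70477729), a transcription factor and a direct target in ESCs, was close to the limit of detection. Each library held 1 to 16 reads of it, and it did not pass the filter on low counts. Clone 11 again held the most, at 12 reads (0.313 TPM) before and 16 reads (0.622 TPM) after Xist expression, against 1 to 7 reads in the other 10 libraries. A limit of 3 reads, which a count of 0 allows, corresponds to 0.0493 to 0.135 CPM (reads scaled by the library total alone).

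Ccnd1 (chromosome 7, 144929931 to 144939925), the D-type cyclin that drives entry into S phase, was at 59.5, 142 and 153 TPM in uninduced and 49.5, 97.2 and 105 TPM in induced wild-type replicates 1, 2 and 3. Clones 8 and 15 were lower than every wild-type library, at 31.5 and 33.1 TPM before and 32.9 and 32.6 TPM after Xist expression, whereas clone 11 was within the uninduced wild-type range at 124 TPM and above the induced range at 110 TPM. The log2 fold change between genotypes was -0.99 (SE 0.65, adjusted p = 0.387) in uninduced cells, -2.14 without clone 11 and -0.65 without clone 8. In induced cells it ranged from -1.62 without clone 11 to -0.29 without clone 15. In wild-type pairs Ccnd1 was at 0.684 to 0.833 of its level before Xist expression, with a paired log2 fold change of -0.43 (SE 0.07, adjusted p = 0.0121), short of 2-fold. The clones stayed at 0.892 to 1.05, and the paired interaction was 0.43 (SE 0.11, adjusted p = 0.0478), also short of the threshold. The annotation places LTO1 on the opposite strand over part of Ccnd1, and Ulk4 likewise over part of Ctnnb1, and whether reads were counted by strand is not given in the sources used here.

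Lgr5 (chromosome 10, 115450311 to 115587780, minus strand), the R-spondin receptor that marks Wnt-driven adult stem cells, was at most 0.248 TPM. Its 4 to 23 reads per library came to 130, of which 65 were intronic, and A930009A15Rik lies across from it on the opposite strand, so no level of Lgr5 was established at this depth.

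Cdx1 (chromosome 18, 61018862 to 61036199, minus strand), a homeobox gene of posterior patterning and intestine, was rare, with its highest levels in the induced clones. Uninduced wild-type replicates 1, 2 and 3 held 22, 0 and 3 reads (0.920, 0 and 0.0732 TPM) and induced ones 24, 16 and 13 reads (0.891, 1.04 and 0.443 TPM). The 0 in replicate 2 allows up to 0.0842 CPM. Clones 8, 11 and 15 held 36, 62 and 66 reads (0.864, 1.85 and 2.16 TPM) before and 98, 79 and 77 reads (2.07, 3.55 and 3.50 TPM) after Xist expression. Every induced clone was above every wild-type library, and in uninduced cells only clone 8 fell within the wild-type range. The log2 fold change between induced groups was 1.86 (SE 0.49), with an adjusted p of 0.0837 in edgeR and 0.0108 in DESeq2, and up to 0.324 over all alternatives. Within the clones the paired change with Xist expression was 1.06 (SE 0.26, adjusted p = 0.0111), and all 3 clones were higher by ratios of 1.62 to 2.40. None of these passed the threshold.

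**Figure D3:**
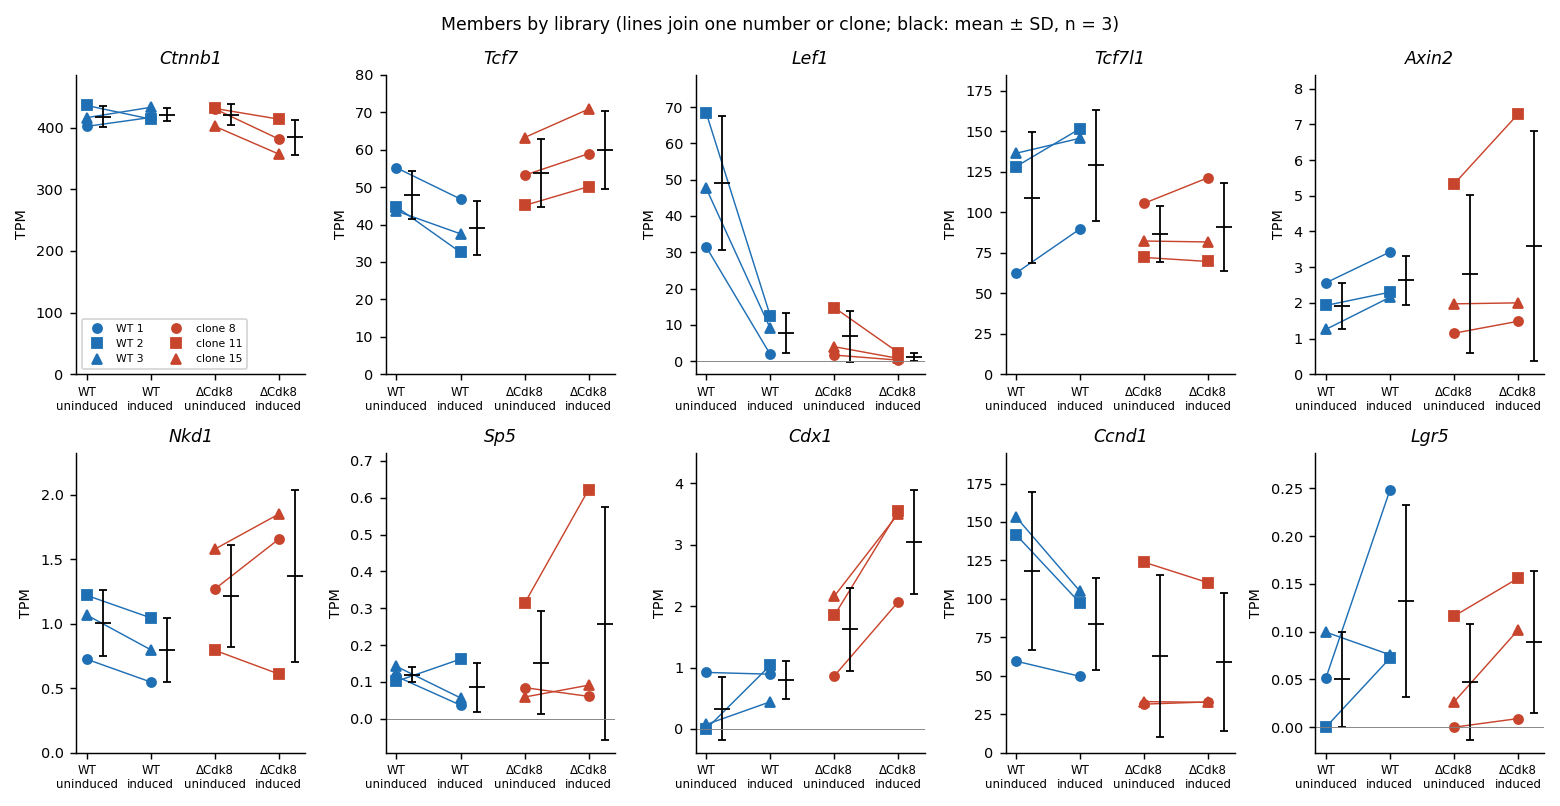
Level (TPM, linear axes that differ between panels) of the 10 genes in each library, with lines joining libraries of the same wild-type number or clone and black bars for mean ± SD (n = 3). Lef1 falls along all 6 lines, Ctnnb1 stays between 357 and 436 TPM, and clone 11 (red squares) stands above the other clones for Axin2, Sp5 and Ccnd1.

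The calls among the 10 genes are set beside the share called over all genes. In wild-type cells 0 of the 9 genes that passed the filter were called for Xist expression, against 1.16% of 14006 genes, and with pairing 1 of 9 (Lef1) against 3.95%. In ΔCdk8 cells the counts were 0 of 9 against 0% of 14832 genes, and with pairing 1 of 9 (Lef1) against 1.4%. For the interaction they were 0 of 9 against 0% of 15137 genes, and with pairing 0 of 9 against 0.998%. Between genotypes they were 0 of 8 against 0% of 14646 genes in uninduced cells, where Lgr5 did not pass the filter, and 0 of 9 against 0% of 14143 genes in induced cells.

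The counts of 0 over all genes by edgeR stood beside 392 genes at an unadjusted p below 0.05 for induction in ΔCdk8 cells, 587 for the interaction, and 2982 and 3668 for genotype in uninduced and induced cells. DESeq2 called 0 higher and 36 lower genes, 31 and 2, 264 and 122, and 542 and 280, in the same order, which is 0.243%, 0.219%, 2.69% and 5.94% of the genes it tested. For induction in wild-type cells it called 222 higher and 440 lower genes, or 4.74%. Of the 10 genes, 1, 0, 1 and 4 had an unadjusted p below 0.05 in edgeR in these comparisons. Lef1 was the only one of them that DESeq2 called, in wild-type induction and in both genotype comparisons.

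The genes whose groups did not overlap were also counted. They were 1 of 9 (Lef1) for induction in wild-type cells, against 26.3% of all genes tested, and 0 of 9 in ΔCdk8 cells, against 5.25%. Between genotypes they were 1 of 8 (Lef1) against 23.1% in uninduced cells, and 3 of 9 (Ctnnb1, Tcf7 and Cdx1) against 28.7% in induced cells. The median log2 fold change of the filtered genes was 0.04 in wild-type and 0.10 in ΔCdk8 induction and -0.06 and -0.28 between uninduced and induced genotypes, beside 0.03, 0.01, 0.03 and 0.03 over all genes. These medians moved with the setting. Between induced genotypes the median was 0.06 with exon reads, 0.04 with no filter beyond 1 count, -0.15 without clone 15 and -0.58 without clone 11. Between uninduced genotypes it was -0.35 without clone 11, and in wild-type induction -0.11 with exon reads.

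**Figure D4:**
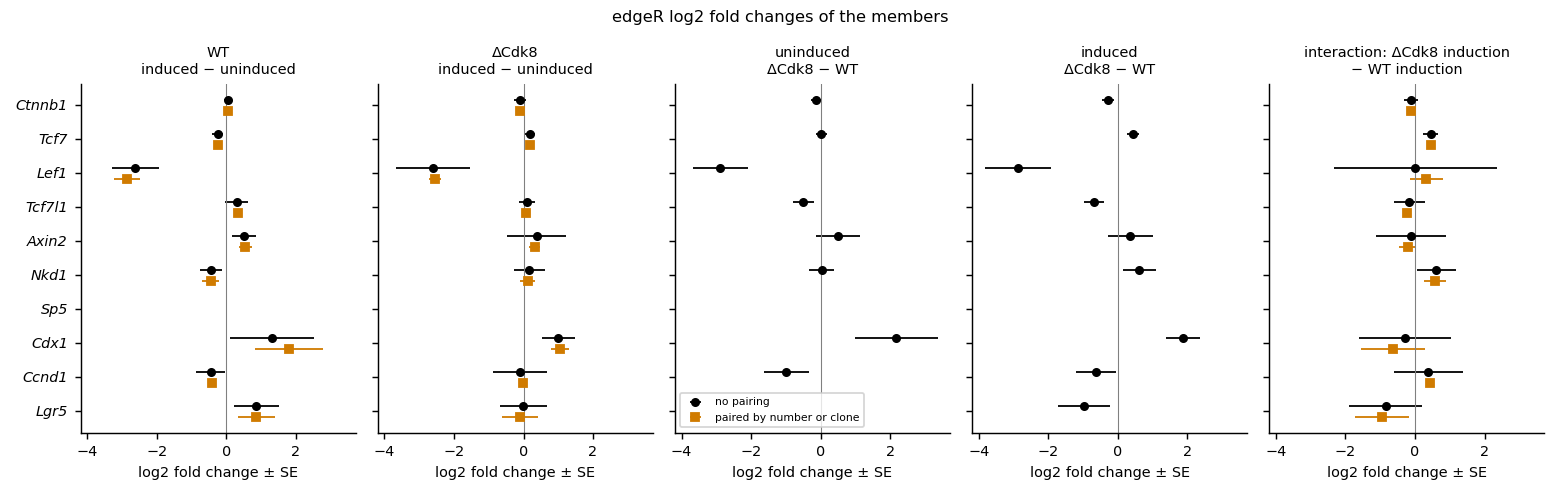
Log2 fold change ± SE by edgeR of the 10 genes in the 5 comparisons, without pairing (black circles) and with libraries paired by number or clone (orange squares). Sp5 has no value, Lgr5 none between uninduced genotypes, and Lef1 lies at -2.55 to -2.88 in every panel but the interaction.

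The rest of the pathway was read from 96 further genes of 11 roles, from ligands to nuclear cofactors. After Xist expression in wild-type cells, 2 of the 75 tested passed, beside the 1.16% of all genes. Tbx3, a T-box factor of naive pluripotency and a reported target, rose from 3.93, 2.63 and 2.07 TPM to 15.6, 14.5 and 12.1 TPM, a log2 fold change of 2.33 (SE 0.26, adjusted p = 0.00620). Amer1, a component of the destruction complex encoded on the X chromosome, fell from 6.09, 8.30 and 6.46 TPM to 0.872, 0.961 and 0.786 TPM, a log2 fold change of -2.97 (SE 0.21, adjusted p = 0.00237). Neither passed without wild-type replicate 2 or 3, when the change was 2.20 and 2.22 for Tbx3 and -2.92 and -2.99 for Amer1, but 0 of all 14397 and 14093 genes tested passed in these fits either, with 1338 and 1247 at an unadjusted p below 0.05. With pairing, where 3.95% of all genes passed, 4 of the 75 did: these, the receptor Fzd10 (1.71, SE 0.24, adjusted p = 0.00773) and the secreted antagonist Sfrp2 (-1.12, SE 0.14, adjusted p = 0.00601). The last 2 were named after their values were seen.

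In ΔCdk8 cells 0 of 82 passed, against 0% of all genes, and with pairing 1 of 82, against 1.4%. This was Amer1, which fell by 1.70 on the log2 scale (SE 0.12, adjusted p = 1.31917e-08), from 5.30, 6.63 and 5.90 TPM to 1.52, 1.92 and 2.03 TPM. For the interaction 0 of 85 passed, against 0% of all genes, and with pairing 2 of 85, against 0.998%. The paired values were 1.28 (SE 0.16, adjusted p = 0.00292) for Amer1 and -1.64 (SE 0.17, adjusted p = 0.00132) for Tbx3. Both changed less in the clones than in wild-type cells. Tbx3 was already at 21.1, 17.9 and 13.9 TPM in uninduced clones 8, 11 and 15, within or above its range in induced wild-type cells, and reached 33.1, 29.1 and 23.0 TPM with Xist expression. Its difference between uninduced genotypes was 2.46 (SE 0.32, adjusted p = 0.101 in edgeR), with no overlap between groups.

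Between uninduced genotypes 0 of the 81 genes tested passed in edgeR, and DESeq2, which called 2.69% of all genes there, called 3, Tfcp2l1, Ror1 and Tbx3. Tfcp2l1, a naive pluripotency factor known to be repressed by Tcf7l1, was at 39.4, 16.9 and 10.01 TPM in wild-type cells and at 91.9, 102 and 76.7 TPM in the clones (1.88, SE 0.48, adjusted p = 0.147). Of the 5 genes known to be repressed by Tcf7l1 in ESCs, none passed in edgeR with all libraries. The log2 fold change was above 0 for 5 of 5 in wild-type induction (median 0.68), 4 of 5 in ΔCdk8 induction (median 0.13), 5 of 5 between uninduced genotypes (median 0.86) and 2 of 5 between induced genotypes (median -0.08). Over all tested genes 53.4%, 53.0%, 52.1% and 51.6% were above 0 in the same order. Esrrb, another of the 5 and named after its values were seen, was at 32.4 to 118 TPM in uninduced and 210 to 247 TPM in induced wild-type libraries, and at 121 to 176 TPM in uninduced and 157 to 207 TPM in induced clones. Its clones thus lay above the wild-type libraries before and below them after Xist expression, without overlap. In wild-type induction DESeq2 called Esrrb (1.65, SE 0.42, adjusted p = 0.00131), and edgeR called Esrrb and Tfcp2l1 without wild-type replicate 1. The orphan receptor Ror1 was at 0.573, 2.54 and 4.49 TPM in wild-type cells and 0.116, 0.409 and 0.344 TPM in the clones (-3.18, SE 0.76, adjusted p = 0.138). Among secreted antagonists Sfrp1 was the furthest apart, at 21.2, 42.0 and 36.2 TPM against 73.7, 121 and 63.6 TPM (1.26, SE 0.37, adjusted p = 0.164, and 0.81 without clone 11).

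In the other roles the gene with the largest uninduced difference was Wnt11 among 15 ligands tested (2.02, SE 0.55, adjusted p = 0.154, at most 0.490 TPM), Porcn, the X-linked acyltransferase of Wnt ligands (0.97, SE 0.49, adjusted p = 0.291), and the ligase Rnf43 (1.27, SE 0.61, adjusted p = 0.277). The difference of Porcn was 0.29 without clone 11 and 1.29 without clone 8, and that of Rnf43 was 0.81 without clone 15. Smaller p-values than those of the largest went to Znrf3, Amer1 and Tle2 in their roles, and Apc2, Dvl1, Apcdd1 and Pygo1 completed the set, none of them past the threshold between uninduced genotypes. Tcf7l2, a TCF/LEF factor named after its values were seen, was at 3.36, 2.59 and 2.91 TPM in uninduced and 6.66, 4.65 and 4.41 TPM in induced wild-type replicates 1, 2 and 3, and at 5.72, 3.98 and 5.001 TPM in uninduced and 5.90, 5.02 and 6.35 TPM in induced clones 8, 11 and 15. Uninduced wild-type libraries were thus below all others. Its log2 fold change was 0.90 (SE 0.20, adjusted p = 0.0592) in wild-type induction and 0.58 (SE 0.22, adjusted p = 0.222) between uninduced genotypes, and in both it was under 2-fold. Over the whole list the medians were 0.14, 0.06, 0.12 and -0.04 for induction in wild-type and ΔCdk8 cells and for genotype in uninduced and induced cells, beside the 0.03, 0.01, 0.03 and 0.03 of all genes. These moved too, to 0.07 in wild-type induction without replicate 1, 0.03 between uninduced genotypes without clone 11 and 0.05 between induced genotypes without clone 15. In induced cells 0 of 76 passed in edgeR and 2, Tfcp2l1 and Dkk3, in DESeq2, which called 5.94% of all genes there. Dkk3, a secreted protein of the Dickkopf family, was named after its values were seen.

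**Figure D5:**
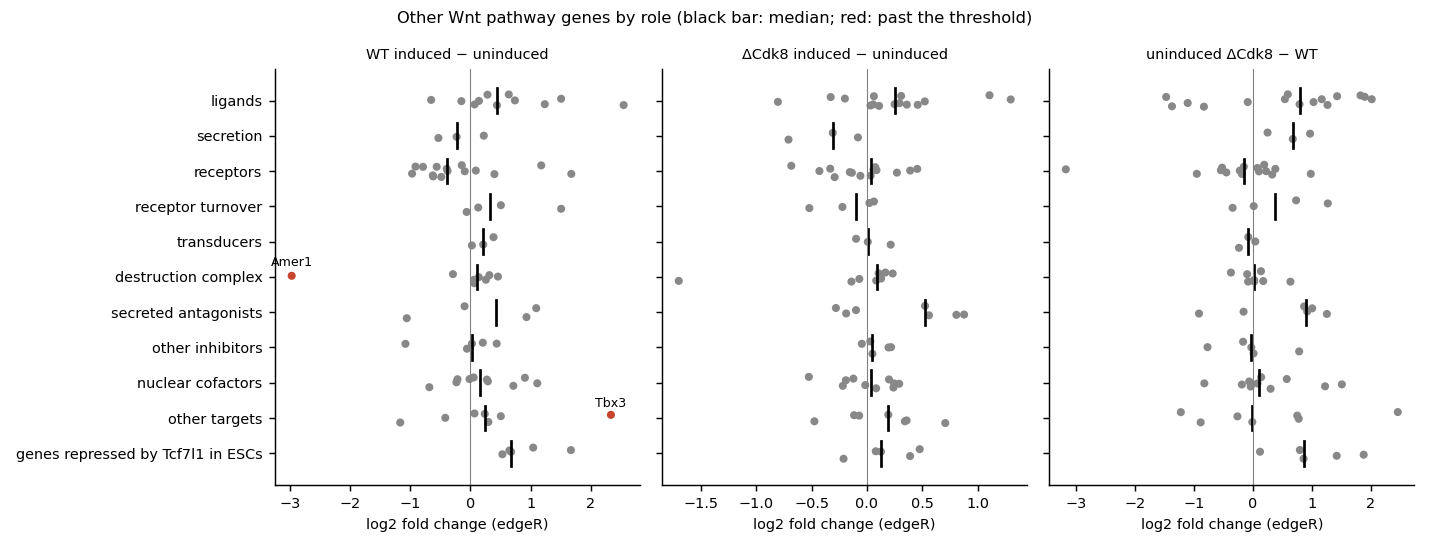
Log2 fold change (edgeR, without pairing; horizontal scales differ between panels) of each tested gene of the wider Wnt list by role, with black bars for the median of a role and red points for genes past the threshold. Tbx3 at 2.33 and Amer1 at -2.97 in wild-type induction are the only red points.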

How the data were processed

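The authors aligned poly(A) RNAseq reads in CLC Genomics Workbench to Ensembl GRCm38. Each deposited table gave raw counts per gene, TPM, RPKM and the fraction of gene reads lying in introns; RPKM was not used. TPM gave levels. Gene counts were tested with edgeR 4.0.16 (R 4.3.3; quasi-likelihood, TMM, filterByExpr with minimum count 10 and minimum total count 15), with DESeq2 1.42.0 as an alternative. Each comparison used its own groups, the interaction all 12 libraries. Benjamini-Hochberg adjustment covered all tested genes; calls needed a fold change above 2 and adjusted p below 0.01. For edgeR, SE is the absolute log2 fold change over the root of F, and for DESeq2 it is the standard error of its Wald test. Same-numbered wild-type samples deviated together (correlations 0.554 to 0.678, against -0.629 to 0.385 between numbers), as did samples of a clone (0.836 to 0.901, against -0.688 to 0.0353), so paired fits are given. These are deviations from the mean of 3 libraries, which cancel out, so high same-number values lower the others by arithmetic. Uninduced wild-type replicate 2 correlated at 0.591 with induced replicate 2 and at 0.385 with induced replicate 3. Nothing says that wild-type replicates were separate cultures, so p-values may measure technical spread. The 10 genes and the list of 96 were chosen with earlier results of these data known. The rule for named list genes took those that passed the threshold and those with the largest difference or smallest p of their role between uninduced genotypes; Fzd10, Sfrp2, Esrrb, Dkk3 and Tcf7l2 were named in addition, after their values were seen. Of the 5 genes most correlated with Axin2, 1 is not reported here.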

Additional observations from a re-analysis of the deposited data

Results flagged for a closer look

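With libraries paired by number or clone, the interaction of genotype and induction passed for 2 of 85 tested genes of the wider Wnt list. Over all genes 0.998% passed there, and without pairing 0 of the 85 list genes did. The paired edgeR interaction was -1.64 on the log2 scale for Tbx3 and 1.28 for Amer1. Tbx3 was already higher in uninduced ΔCdk8 than in uninduced wild-type libraries, without overlap. For Tcf7, all 3 wild-type pairs were lower and all 3 ΔCdk8 pairs higher after Xist expression, with an interaction of 0.45 that did not pass the threshold.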

How the results depend on the processing

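With libraries paired by replicate number or clone as a block, 1 of the 10 genes (Lef1) was called for Xist expression in each genotype in place of 0, and 4, 1 and 2 genes of the wider list were called in wild-type induction, ΔCdk8 induction and the interaction in place of 2, 0 and 0. The list genes tested numbered 75, 82 and 85. Over all genes the paired fits called 3.95%, 1.4% and 0.998%, against 1.16%, 0% and 0% without pairing. Exon reads with the same block, chosen after seeing the data, gave 1, 1, 4, 1 and 2 likewise, and the block changed no other call. Over all genes the exon fits called 196 higher and 335 lower of 13342, 23 and 177 of 14129, and 117 and 29 of 14418. DESeq2 called 1 of the 10 genes in wild-type induction and in each genotype comparison, and 6, 1, 3 and 2 genes of the list in wild-type induction, ΔCdk8 induction, and uninduced and induced genotypes. The list genes it tested numbered 75, 82, 81 and 76 in that order. Over all genes it called 4.74%, 0.243%, 2.69% and 5.94%. An adjusted p below 0.05 without a fold minimum gave 5 list genes in wild-type induction (over all 14006 genes, 251 higher and 388 lower), and a fit over all 12 libraries gave 1 between uninduced genotypes (over all 15137 genes, 3 higher and 2 lower). Leaving out a wild-type replicate gave 0 to 1 of the 10 genes and 0 to 7 of the list in wild-type induction: 7 without replicate 1 (over all 14196 genes, 193 higher and 373 lower), and 0 without replicate 2 or 3, where edgeR called 0 of all genes too and Tbx3 and Amer1 kept their direction. The common dispersion in edgeR was 0.0857 with all 6 libraries, 0.0179 without replicate 1, and 0.122 and 0.116 without replicates 2 and 3. The induced genotype difference of Axin2 ranged from -0.85 without clone 11 to 0.74 without clone 8. These 23 counts were the only ones of the 10 genes and the list to move by over 1.5 times. The causes of these changes were not tested. Sp5, Lgr5 and Cdx1 rest on few reads and limit what their levels show.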
